A study of Mus musculus with 20 samples.

Results

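The transcripts described here encode 10 subunits of polycomb repressive complex 2 (PRC2): Eed, Ezh1, Ezh2, Suz12, Rbbp4 and Rbbp7 of the core, and Jarid2, Aebp2, Mtf2 and Phf19 of the accessory set. They were chosen by name, and all 10 were found among the 46603 gene identifiers with counts. The samples were 20 bulk RNA-seq libraries of poly(A) RNA from livers of male mice aged 2 months, in 4 groups of 5. Wild type (WT) mice were C57BL/6J from a vendor. EedHepKO mice (KO) came from a cross of Alb:Cre mice, in which the albumin promoter drives Cre recombinase in hepatocytes, with Eedflox mice, whose loxP sites flank exons 3 and 6 of Eed. The baseline tissue of either genotype was lobes 1, 2 and 3, taken out at partial hepatectomy (PHx). The regrowing lobes 4, 5 and 6 were then collected 30 h (1 mouse per genotype), 40 h (2) or 48 h (2) later. Replicate numbers are the mouse numbers in the sample titles, WT 1 to 5 and KO 7, 8, 10, 11 and 12, except that WT baseline replicate 1 has no mouse number in its title and was paired with no other sample. Since WT mice came from a vendor and KO mice from a cross, loss of Eed cannot be told apart from colony of origin or from Cre itself. The response to PHx cannot be told apart from the lobes sampled. Macrophages, endothelial cells and stellate cells, which do not come from albumin-expressing precursors, should keep an intact Eed in this model, whereas cholangiocytes share a precursor with hepatocytes and may not, and in bulk RNA fewer cells of a type and less RNA per cell cannot be told apart.

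PRC2 places methyl groups on lysine 27 of histone H3, a mark of silenced developmental genes. EZH1 and EZH2 are the alternative catalytic subunits, EED binds the methylated mark and stimulates the enzyme, and SUZ12 is the scaffold that holds the complex together. RBBP4 and RBBP7 are histone chaperones that PRC2 shares with other chromatin complexes. JARID2 and AEBP2 define the variant complex PRC2.2, while MTF2 and PHF19, with PHF1, are the Polycomb-like proteins of PRC2.1. EZH2 is typical of dividing cells and EZH1 of resting cells, and adult liver is a largely resting tissue that divides again after resection.

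The targeted stretch of Eed is shown first because it decides what a read count of this gene can tell. In the GENCODE M21 transcript Eed-201 (mm10, minus strand) exons 3 to 6 lie within chr7:89969571-89972323 and hold 367 coding bases. That is 17.8% of the 2067 bases of the transcript and 27.7% of its 1323 coding bases, and 367 leaves a remainder of 1 on division by 3. The exon numbers in the labels are not tied to a named transcript. The exons, which Cre should remove from the KO allele, follow 5′ to 3′ on the coding strand in lower case, each with its mm10 position.

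Eed exon 3, chr7:89972231-89972323: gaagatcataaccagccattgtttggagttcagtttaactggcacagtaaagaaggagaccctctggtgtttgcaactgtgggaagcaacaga
Eed exon 4, chr7:89971540-89971605: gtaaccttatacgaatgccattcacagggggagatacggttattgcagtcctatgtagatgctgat
Eed exon 5, chr7:89970306-89970431: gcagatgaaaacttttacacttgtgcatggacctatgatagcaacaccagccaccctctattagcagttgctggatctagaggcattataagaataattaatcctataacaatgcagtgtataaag
Eed exon 6, chr7:89969571-89969652: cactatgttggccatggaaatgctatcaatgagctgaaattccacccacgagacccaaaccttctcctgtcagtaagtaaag

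Gene counts add up reads over the whole of Eed, so a transcript that lacks these exons still counts through the rest of its length. Total counts per library ranged from 21634890 to 30461351. Levels are given as CPM, counts per 1000000 of the TMM-scaled library total, and called means a Benjamini-Hochberg adjusted p under 0.05 in edgeR's quasi-likelihood test over the 14661 genes that passed the filter on low counts, all 10 PRC2 genes among them. The sum of 10 hepatocyte markers was 135703 to 157807 CPM in WT and 87727 to 117295 CPM in KO at baseline, without overlap, and 78839 to 124778 CPM in WT and 41141 to 105587 CPM in KO after PHx, with no marker at 0. The TMM factors were 0.67 to 0.81 in WT and 0.98 to 1.19 in KO at baseline. After PHx they were 0.89 to 1.07 in WT and 0.98 to 1.51 in KO. A lower factor raises the CPM of a library, and overlap between groups is stated for TMM-scaled CPM. Per library total, without these factors, the hepatocyte sums of the genotypes overlapped at baseline. The part of hepatocyte markers in the differences between the groups was not tested. The proliferation marker Mki67 set libraries of the same group apart: it was 82.3 and 328 CPM in WT after PHx replicates 1 (30 h) and 5 (48 h), but 0.217 and 0.284 CPM in replicates 2 (40 h) and 4 (48 h), below every WT baseline library. Among KO libraries it reached 119 CPM in replicate 10 after PHx (40 h), and at baseline it was 34.6 and 26.5 CPM in replicates 7 and 8 beside 2.49 to 4.28 CPM in the other 3.

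At baseline in WT liver the 10 genes spanned a wide range of levels. Divided by the length of the merged exons, Rbbp7 stood highest at 23.7 ± 2.47 CPM per kilobase (SD, n = 5), followed by Rbbp4 at 17.8 ± 1.23. Next came Suz12 at 5.54 ± 0.724 and Eed at 4.39 ± 0.285 CPM per kilobase. Libraries of Suz12 and Eed overlapped, as did those of the next pair, Aebp2 (2.35 ± 0.272) and Ezh1 (1.92 ± 0.155), and of the pair after it, Mtf2 (1.23 ± 0.195) and Jarid2 (1.19 ± 0.100). Ezh2 stood below all of these at 0.502 ± 0.136 CPM per kilobase, and Phf19 was lowest at 0.0368 ± 0.0115. By merged exons Rbbp7, Rbbp4 and Suz12 held the first 3 places in all 4 groups, Phf19 the last, and Eed moved from place 4 in WT at baseline to place 6 in KO at baseline and place 9 in KO after PHx. Much of this order depends on the length used. By the longest transcript Rbbp4 and Rbbp7 held the first 2 places and Phf19 the last in all 4 groups, but Rbbp4 stood above Rbbp7 in WT at baseline (mean ratio 1.09, against 0.756 by merged exons), Eed stood above Suz12 in WT at baseline (8.13 against 6.27 CPM per kilobase) and after PHx (8.89 against 7.26), and Aebp2 took place 3 after PHx in both genotypes. Eed was then in place 3 in WT at baseline, 6 in KO at baseline and 8 in KO after PHx.

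**Figure D1:**
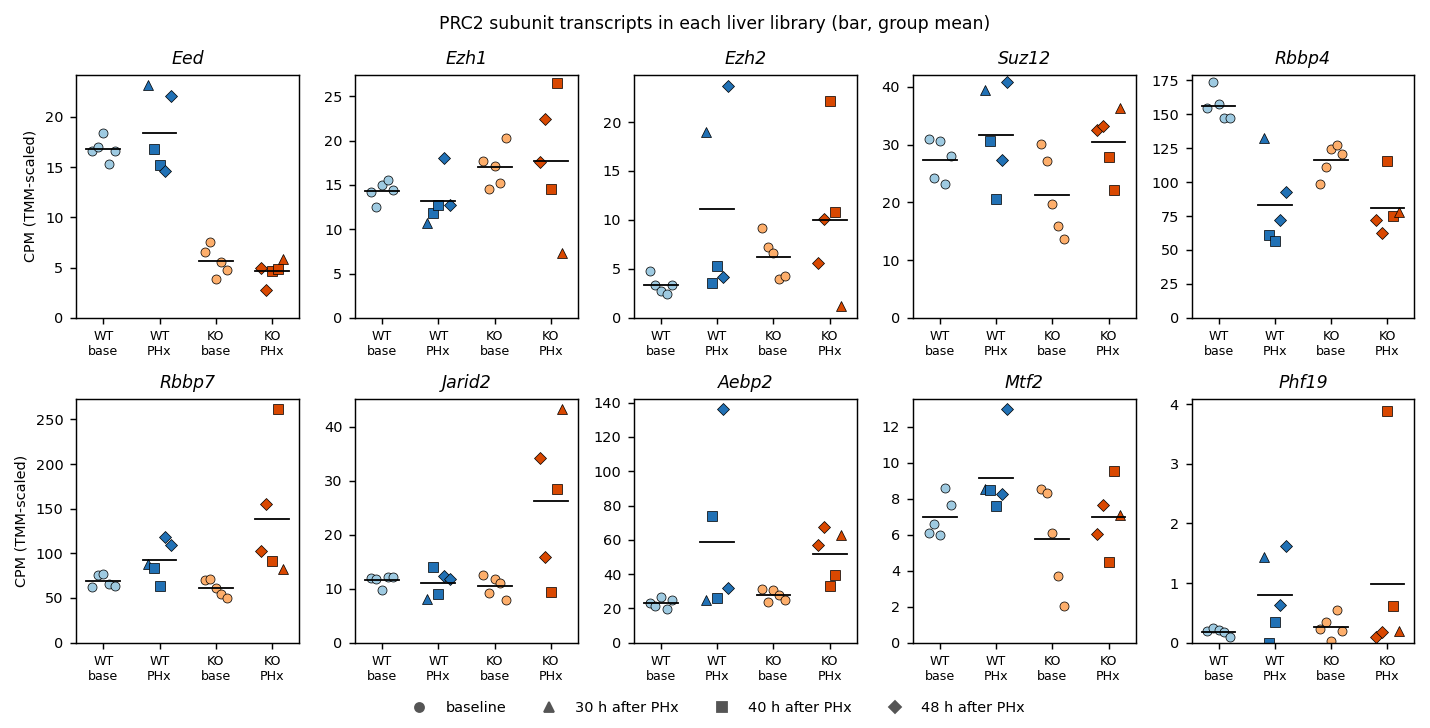
CPM of each PRC2 gene (vertical axis, linear from 0) in the 20 libraries, by group on the horizontal axis; each point is 1 library, its shape gives the time after PHx and the bar is the group mean. Eed separates by genotype at both stages, Rbbp4 drops after PHx in WT, and the groups after PHx scatter far more than WT at baseline for Ezh2, Aebp2 and Phf19.

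In KO liver, Eed was the PRC2 gene that fell at both stages, and transcript remained in every KO library. WT baseline libraries 1 to 5 had 16.6, 17.05, 18.4, 15.3 and 16.7 CPM of Eed, and KO baseline libraries 7, 8, 10, 11 and 12 had 6.50, 7.52, 3.83, 5.57 and 4.79 CPM. After PHx the WT libraries had 23.2, 16.8, 15.2, 14.6 and 22.05 CPM and the KO libraries, in the same order as above, 4.97, 2.75, 4.69, 4.86 and 5.82 CPM. The genotypes did not overlap at either stage, and 12.2% of all genes were lower in KO without overlap at baseline and 2.97% after PHx. The residual Eed of the KO libraries was 22.8% to 44.8% of the WT baseline mean before PHx and 16.3% to 34.6% after it. Within KO mice Eed went up in 2 and down in 3 of 5 from baseline to after PHx (log2 change -0.29, SE 0.21, edgeR adjusted p 0.308). Markers of cells that the albumin promoter does not target moved alongside: the sum of 10 macrophage markers was 514 to 644 CPM in KO at baseline against 204 to 349 in WT, and that of 10 stellate cell markers 561 to 675 against 246 to 389. After PHx the macrophage sums, 172 to 493 CPM in KO and 91.1 to 434 in WT, overlapped, and the stellate sums, 351 to 661 CPM in KO and 214 to 345 in WT, did not. The sum of 10 endothelial markers was 316 to 365 CPM in KO at baseline against 260 to 292 in WT, without overlap. After PHx the endothelial sums, 150 to 284 CPM in KO and 146 to 245 in WT, overlapped. None of the markers in these lists was at 0 in any of the 4 groups. Their part in the residual Eed was not tested.

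The expression of Cdkn2a, a classic target of PRC2 silencing, separated the genotypes in the same libraries. It was at most 0.0917 CPM in WT at baseline and 0.412 CPM in WT after PHx, against 5.16 to 9.89 CPM in KO at baseline and 5.34 to 10.8 CPM in KO after PHx. The ranges of KO libraries at the 2 stages overlapped.

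At baseline Eed was the only one of the 10 genes called between genotypes (log2 change -1.57, SE 0.22, edgeR adjusted p 6.07e-05). That is 1 of 10, where 16% of all genes tested were called and 4.89% were called lower and 11.1% higher. The remaining core genes stayed uncalled, with log2 changes of -0.42 (SE 0.21) for Rbbp4, -0.36 (SE 0.22) for Suz12, -0.17 (SE 0.26) for Rbbp7, 0.25 (SE 0.24) for Ezh1 and 0.90 (SE 0.58) for Ezh2. Of the accessory genes Aebp2 (0.26, SE 0.36), Jarid2 (-0.14, SE 0.29), Mtf2 (-0.28, SE 0.31) and Phf19 (0.51, SE 1.05) also stayed uncalled. The median log2 change of the 10 genes was -0.15 beside -0.03 over all genes.

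Rbbp4, which encodes the histone chaperone shared with deacetylase and nucleosome assembly complexes, was nevertheless separated by genotype at baseline in TMM-scaled CPM. WT libraries 1 to 5 had 154, 173, 157, 147 and 147 CPM of Rbbp4 and KO libraries 7, 8, 10, 11 and 12 had 98.6, 111, 125, 127 and 121 CPM, so every KO library was below every WT library. Eed and Rbbp4 were thus 2 of the 10 genes lower in KO without overlap, read against the 12.2% of all genes. The fit of all 20 libraries gave an edgeR adjusted p of 0.171 for Rbbp4 (log2 change -0.42, SE 0.21). With library totals in place of TMM scaling the log2 change of Rbbp4 was 0.052 and not called. That scaling moved the median of all genes in this comparison from -0.03 to 0.45. A fit of the 10 baseline libraries alone gave -0.40 with an adjusted p of 0.00475 (edgeR). Ezh2 was likewise called only in the fit of the baseline libraries (log2 change 0.93, edgeR adjusted p 0.0159, against 0.314 with all 20). That fit called 39.5% of all genes it tested, against 16% with all 20 libraries.

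For Ezh2, the catalytic subunit of dividing cells, WT baseline libraries 1 to 5 had 4.81, 3.35, 2.78, 2.43 and 3.39 CPM. KO baseline libraries 7, 8, 10, 11 and 12 had 9.13, 7.27, 6.66, 3.95 and 4.23 CPM. Replicates 7, 8 and 10 lay above every WT library, while 11 and 12 lay inside the WT range. Replicates 7 and 8 were also the KO baseline libraries highest in Mki67, and their Ptprc, a marker of all leukocytes, was 20.8 and 17.8 CPM against 5.63 to 11.7 CPM in the other 3. Of 22 proliferation markers 3 were called higher in KO at baseline, beside 11.1% of all genes: Plk1, a mitotic kinase (log2 change 5.92, SE 1.86, edgeR adjusted p 0.0357), Ccna2, a cyclin of S and G2 phase (5.00), and Ccnb1, a mitotic cyclin (5.65). The sum of the 22 markers was 63.2 to 73.8 CPM in WT and 117 to 296 CPM in KO at baseline, without overlap. The part of these markers in the level of Ezh2 was not tested.

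The same 5 KO livers also spread in Suz12 and Mtf2. The scaffold gene Suz12 had 30.1, 27.1, 19.8, 15.9 and 13.6 CPM in KO baseline libraries 7, 8, 10, 11 and 12, against 30.9, 24.3, 30.6, 23.1 and 28.03 CPM in WT libraries 1 to 5. Mtf2, which encodes a Polycomb-like protein that brings PRC2 to CpG islands, had 8.56, 8.32, 6.10, 3.70 and 2.02 CPM in the same KO libraries and 5.97 to 8.58 CPM in WT. Both genes thus had the same order over these KO livers, with replicates 7 and 8 inside the WT range and 11 and 12 below it. Ptprc, the leukocyte marker, had that order too, with 20.8, 17.8, 11.7, 7.06 and 5.63 CPM in the same libraries. The cholangiocyte marker sum also had it (441, 277, 209, 183 and 128 CPM), as had the lymphocyte sum, which includes Ptprc. The macrophage sum (644, 541, 593, 514 and 578 CPM) did not, nor did the endothelial and stellate sums. The part of these cell types in these levels was not tested. Rbbp7, encoding the second histone chaperone, varied less, from 50.4 to 71.1 CPM in KO and 61.8 to 77.1 CPM in WT, and its lowest KO libraries were again 12 and 11.

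After PHx, 2 of the 10 genes were called between genotypes: Eed, lower in KO (log2 change -1.99, SE 0.22, edgeR adjusted p 4.39e-06), and Jarid2, higher in KO. Over all genes 24.2% were called, 16% higher and 8.2% lower. Jarid2 encodes a DNA-binding accessory subunit that carries PRC2 to chromatin. WT libraries 1 to 5 after PHx had 8.11, 13.96, 9.02, 12.4 and 11.8 CPM of Jarid2, beside 9.83 to 12.1 CPM in WT at baseline. KO libraries 7, 8, 10, 11 and 12 had 34.3, 15.9, 9.34, 28.4 and 43.3 CPM, so 4 of 5 exceeded every WT library and replicate 10 did not. The log2 change was 1.25 (SE 0.29, edgeR adjusted p 0.00443), and it was no longer called in a fit of the 10 libraries after PHx alone (1.28, adjusted p 0.062), which called 9.69% of all genes it tested. Cholangiocyte markers moved in the same comparison: 5 of 9 tested were called higher in KO after PHx, among them Epcam (log2 change 4.22, SE 0.66, edgeR adjusted p 0.00014), and the sum of 10 was 179 to 667 CPM in KO against 81.2 to 318 CPM in WT, with no marker at 0 in either group. In KO libraries 7, 8, 10, 11 and 12 that sum was 634, 667, 262, 389 and 179 CPM. It was lowest in replicate 12, the KO library highest in Jarid2. The part of these markers in Jarid2 was not tested.

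Rbbp7 after PHx had 102, 156, 91.0, 262 and 82.9 CPM in KO libraries 7, 8, 10, 11 and 12 and 88.3, 84.1, 63.0, 118 and 110 CPM in WT libraries 1 to 5. The groups overlapped and the log2 change of 0.58 (SE 0.26) was not called (edgeR adjusted p 0.105). Ezh1 after PHx, with 17.6, 22.4, 14.6, 26.5 and 7.29 CPM in KO and 10.7, 11.8, 12.7, 18.1 and 12.8 CPM in WT, gave 0.42 (SE 0.24) and was not called (adjusted p 0.221). Replicate 12, the KO library of 30 h, held the lowest Ezh1 of all 20 libraries; without it Ezh1 and Rbbp7 were both called (log2 change 0.61, adjusted p 0.0217, and 0.72, adjusted p 0.0428), and without KO replicate 10 Rbbp7 was called (0.70, adjusted p 0.0426), where 34.3% of all genes were. Without replicate 12 the number of PRC2 genes called was 4, where 24.6% of all genes were. With library totals in place of TMM scaling both were called as well (Ezh1 0.88, adjusted p 0.0369, and Rbbp7 1.04, adjusted p 0.021). For Suz12 (-0.06), Rbbp4 (-0.04), Ezh2 (-0.16), Aebp2 (-0.18), Mtf2 (-0.40) and Phf19 (0.28) the log2 changes between genotypes after PHx ranged in SE from 0.21 to 0.91 and were not called.

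**Figure D2:**
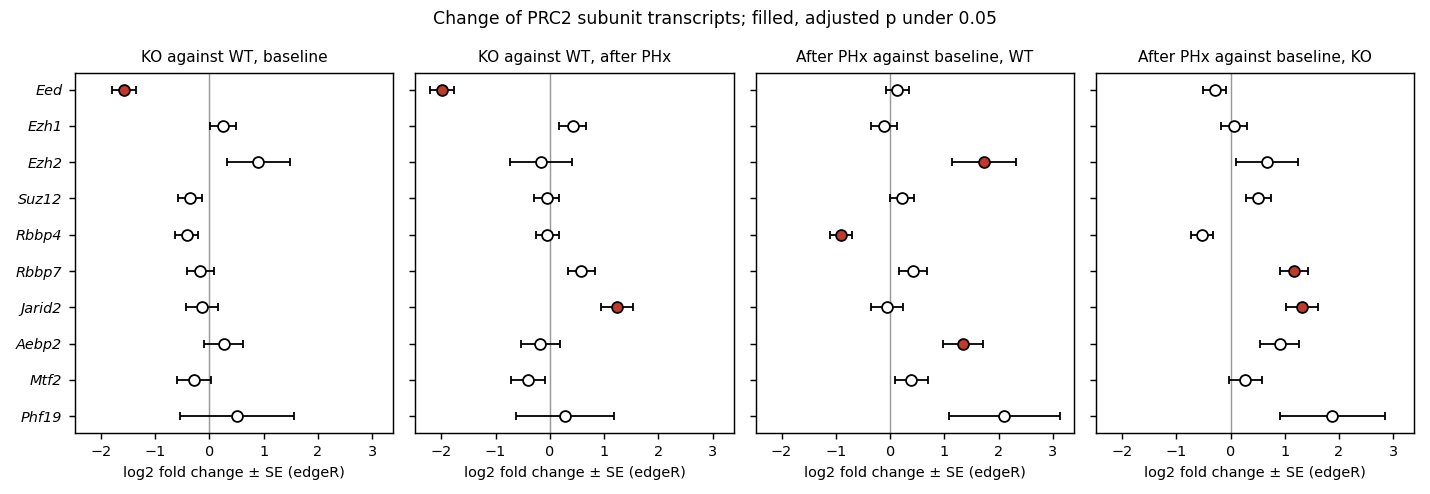
Log2 fold change of each PRC2 gene (horizontal axis, edgeR estimate with its SE as the bar) in the 4 comparisons, 1 panel each; filled points have an adjusted p under 0.05 over all genes tested. Eed is filled in both panels of KO against WT, Jarid2 in both panels that contain KO after PHx, and the points of Phf19 carry the widest bars.

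The response to PHx in WT liver held 3 called PRC2 genes, Ezh2 and Aebp2 higher and Rbbp4 lower, where 20.1% of all genes were called, 11.4% higher and 8.68% lower. The median log2 change of the 10 genes was 0.30 beside 0.04 over all genes.

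Rbbp4 fell in WT from 147 to 173 CPM at baseline to 133, 60.7, 56.9, 72.0 and 93.1 CPM in libraries 1 to 5 after PHx. No library after PHx reached the baseline range, and 10.9% of all genes were lower after PHx in WT without overlap. The log2 change was -0.91 (SE 0.21, edgeR adjusted p 0.00516), and Rbbp4 was lower in 4 of 4 WT mice with both samples. The least lowered library, replicate 1, was that of 30 h. Marker sums also moved from baseline to after PHx in WT: 10 endothelial markers went from 260 to 292 CPM to 146 to 245 CPM and 10 lymphocyte markers from 7.92 to 12.4 CPM to 1.13 to 6.35 CPM, both without overlap and with no marker at 0 in either group, as did the hepatocyte sums given above. Per library total, without the TMM factors, each of these sums overlapped between the stages. The part of these markers in Rbbp4 was not tested. With library totals in place of TMM scaling, which moved the median of all genes in this comparison from 0.04 to 0.40, the change was -0.53 and not called (adjusted p 0.0629).

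Ezh2 had 19.01, 3.52, 5.29, 4.22 and 23.7 CPM in WT libraries 1 to 5 after PHx. Libraries 1 and 5 were several times the baseline maximum of 4.81 CPM, and libraries 2 and 4 lay inside the baseline range. The log2 change was 1.74 (SE 0.59, edgeR adjusted p 0.044). Ezh2 was higher in 4 of 4 WT mice with both samples, by 1.05 to 6.99 times. The call rests on few libraries: leaving out 1 of the 10 lost the call in 7 cases, with log2 changes from 1.30 without WT replicate 5 after PHx upward, and with mouse as a block it was 1.13 (adjusted p 0.229). Without WT replicate 1 after PHx it was 1.46 (adjusted p 0.096). Libraries 1 and 5 were those high in Mki67.

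Aebp2 encodes a zinc finger subunit that stimulates the enzyme. It had 24.9, 73.9, 25.99, 136 and 32.01 CPM in WT libraries 1 to 5 after PHx against 19.8 to 26.5 CPM at baseline. The high libraries, 2 and 4, were the ones lowest in Mki67, the reverse of Ezh2. The log2 change was 1.34 (SE 0.37, edgeR adjusted p 0.0142), with Aebp2 higher in 3 of 4 WT mice with both samples. Without WT replicate 4 after PHx it was 0.82 (adjusted p 0.048), and with mouse as a block it was 1.22 and not called (adjusted p 0.0836).

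In KO liver the response to PHx held 2 called PRC2 genes, Rbbp7 and Jarid2, both higher, where 29.5% of all genes were called, 17.5% higher and 12.1% lower. The median log2 change of the 10 genes was 0.60 beside 0.10 over all genes. Rbbp7 rose from 50.4 to 71.1 CPM at baseline to 82.9 to 262 CPM after PHx (log2 change 1.18, SE 0.26, edgeR adjusted p 0.00367), and it was higher in 5 of 5 mice by 1.46 to 4.82 times; without KO replicate 11 after PHx the change was 0.78 (adjusted p 0.00794). Jarid2 rose from 7.93 to 12.5 CPM at baseline to 9.34 to 43.3 CPM after PHx (log2 change 1.32, SE 0.30, edgeR adjusted p 0.00394), higher in 4 of 5 mice and lower in mouse 10. Marker sums moved over the same stages in KO: macrophage markers from 514 to 644 CPM to 172 to 493 CPM, endothelial markers from 316 to 365 CPM to 150 to 284 CPM and lymphocyte markers from 11.1 to 27.5 CPM to 4.97 to 8.92 CPM, each list of 10 without overlap and with no marker at 0 in either group. Without the TMM factors, per library total, each of these sums overlapped between the stages. The part of these markers in the KO response of the PRC2 genes was not tested.

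Aebp2 had 31.1, 23.5, 30.8, 27.9 and 25.02 CPM in KO libraries 7, 8, 10, 11 and 12 at baseline and 56.8, 67.6, 33.1, 39.4 and 62.5 CPM after PHx. Every library after PHx was above every baseline library, as for Rbbp7, so 2 of the 10 genes were higher without overlap, where 6.19% of all genes were. Aebp2 was not called (log2 change 0.91, SE 0.36, edgeR adjusted p 0.0634); over its 19 alternatives the adjusted p ranged from 0.0169 to 0.14. It was under the threshold in a fit of the 10 KO libraries alone (0.0169), with library totals in place of TMM scaling (0.0221), without KO replicate 10 after PHx (0.0351), with time after PHx as a covariate (0.0474) and in DESeq2 (0.048).

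Rbbp4 in KO was 72.2, 62.2, 116, 75.0 and 78.2 CPM after PHx in libraries 7, 8, 10, 11 and 12, lower in 5 of 5 mice than at baseline. Replicate 10 reached into the baseline range. The log2 change was -0.53 (SE 0.21, edgeR adjusted p 0.0574); with mouse as a block it was called (-0.56, adjusted p 0.0454), as it was with time after PHx as a covariate (-0.53, 0.0437), without both 30 h samples (-0.52, 0.0442) and without replicate 10 after PHx (-0.70, adjusted p 0.0102), where 40.4% of all genes were called. Suz12 was also higher after PHx in 5 of 5 KO mice, by 1.08 to 2.67 times, with 32.5, 33.3, 27.9, 22.2 and 36.3 CPM in the same libraries. Its log2 change of 0.51 (SE 0.22) was not called (edgeR adjusted p 0.0861), and it was called without KO replicate 7 at baseline (0.65, adjusted p 0.048) and with library totals in place of TMM scaling (0.74, adjusted p 0.0272).

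For a difference between the KO and WT responses, 0 of the 10 genes were called by edgeR or by DESeq2, where 0.389% of all genes were called by edgeR, and 1 of the 10, Jarid2, had an unadjusted p under 0.05 (0.00324), as had 13.3% of all genes. The difference of log2 changes, KO minus WT, was 1.39 for Jarid2 (SE 0.41, adjusted p 0.15), and without KO replicate 10 after PHx it was 1.60 and called (adjusted p 0.0121), while the share of all genes called rose to 4.74%. For Rbbp7 it was 0.75 (SE 0.36), for Rbbp4 0.38 (SE 0.29) and for Ezh2 -1.06 (SE 0.81). The called genes of the WT and KO responses are therefore not shown to differ between genotypes.

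Genotype comparisons at single times gave other calls. At 40 h, with 2 libraries per genotype, 4 of the 10 genes were called between genotypes, beside 13.3% of all genes (8.61% higher, 4.68% lower): Eed lower, and Rbbp4 (log2 change 0.70, SE 0.22, edgeR adjusted p 0.0447), Rbbp7 (1.26, SE 0.36, 0.0305) and Phf19 (3.63, SE 1.16, 0.0481) higher in KO. Leaving out 1 of the 4 libraries leaves an arm with 1 library, which is assumed to vary like the other groups, and gave counts from 1 to 4: without KO replicate 10 the values were 0.35 for Rbbp4 (adjusted p 0.292) and 1.77 for Phf19 (0.333), without KO replicate 11 Rbbp7 was 0.31 (0.539), and without WT replicate 2 or 3 the count was 1 or 2. The share of all genes called moved as well, from 1.47% without WT replicate 2 to 17.3% without KO replicate 10. With no filter on low counts Rbbp4 was not called (adjusted p 0.119). At 48 h Eed alone was called (-2.25, SE 0.33, edgeR adjusted p 0.000413), beside 24.3% of all genes (10.7% lower), and leaving out 1 library gave counts from 1 to 3, the highest without WT replicate 4 (30.3% of all genes called) and 2 without WT replicate 5 (14.4%) or KO replicate 8 (16.3%). At 30 h, with 1 library per genotype and no replicate check, Ezh2 was 19.01 CPM in WT and 1.23 CPM in KO, the lowest Ezh2 of all 20 libraries, while Jarid2 was 8.11 CPM in WT and 43.3 CPM in KO, the highest Jarid2 of all.

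Phf19, a Polycomb-like gene with few reads in adult liver, had 297 counts in all 20 libraries together. It was 0.0917 to 0.25 CPM in WT at baseline and 0.0345 to 0.54 CPM in KO at baseline. After PHx it was 1.44, 0, 0.342, 0.638 and 1.61 CPM in WT libraries 1 to 5, where the count of 0 allows up to 0.13 CPM (3 counts, for counting error only), and 0.0899, 0.176, 3.89, 0.612 and 0.189 CPM in KO libraries 7, 8, 10, 11 and 12. The libraries above 1 CPM were WT 1, WT 5 and KO 10. The log2 change after PHx was 2.10 (SE 1.02, edgeR adjusted p 0.151) in WT and 1.88 (SE 0.97, 0.144) in KO. Without KO replicate 10 after PHx the change in KO was 0.019 (adjusted p 0.987). Its KO against WT change was 6.65 higher at 40 h than at 48 h (log2, SE 1.61, edgeR adjusted p 0.0355), 1 of 10 PRC2 genes called in a contrast that called 4.72% of all genes, with 2 libraries per arm; without KO replicate 10 it was 4.79 and not called (0.133), and the share of all genes called ranged from 0.187% to 21.4% with 1 library left out.

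Those 3 libraries also ranked highest for other PRC2 genes. Among the 10 libraries after PHx, WT 5, KO 10 and WT 1 were the 3 highest in Mki67, and the same 3 were the highest in Ezh2, Phf19 and Rbbp4, 3 of the 10 PRC2 genes, and in Pcna, the DNA replication clamp. Over all genes tested 7.07% had the same 3 highest libraries. Eed, Suz12 and Mtf2 shared 2 of the 3, and Ezh1, Rbbp7, Jarid2 and Aebp2 shared 0. For Rbbp4 this ordering held inside a group whose level was below baseline, since the WT library highest in Mki67 (328 CPM) had 93.1 CPM of Rbbp4 against at least 147 CPM at baseline.

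**Figure D3:**
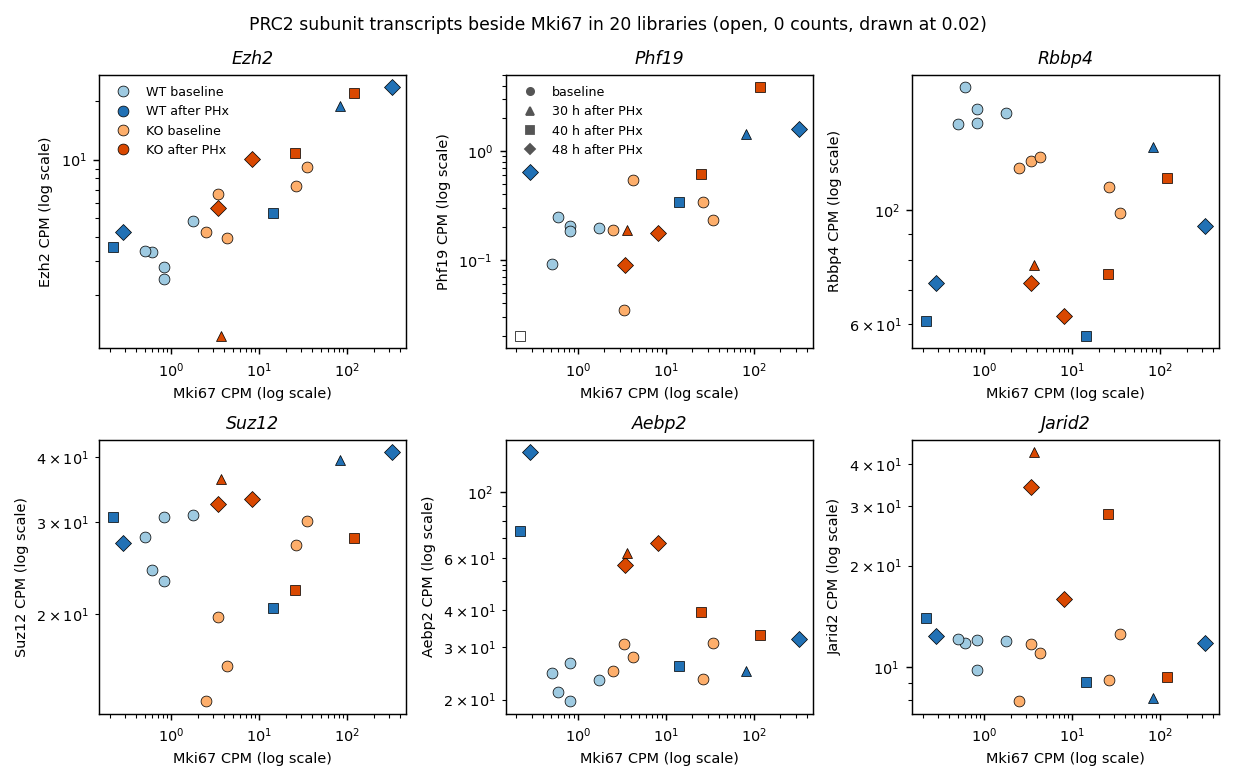
CPM of 6 PRC2 genes (vertical axes, log scale) against CPM of the proliferation marker Mki67 (horizontal axes, log scale) in 20 libraries, coloured by group and shaped by time after PHx; the open square is a library with 0 counts of Phf19. The 3 libraries after PHx farthest to the right are the highest of their stage in Ezh2, Phf19 and Rbbp4, whereas Aebp2 and Jarid2 peak in libraries low in Mki67.

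The balance of the catalytic subunits shifted with the same libraries. In WT at baseline Ezh1 exceeded Ezh2 in 5 of 5 libraries, with a ratio per kilobase of 4.07 ± 1.22 (SD, n = 5) and a range of 2.66 to 5.72. In WT after PHx the ratio was 0.504, 3.00, 2.16, 3.85 and 0.483 in libraries 1 to 5, so Ezh2 exceeded Ezh1 in libraries 1 and 5. In KO it was 1.74 to 4.31 at baseline and 2.80, 1.99, 0.59, 2.19 and 5.32 in libraries 7, 8, 10, 11 and 12 after PHx. Below 1 stood the 3 libraries highest in Mki67 after PHx. Computed with the longest transcripts, the mean ratio in WT at baseline was 3.01.

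**Figure D4:**
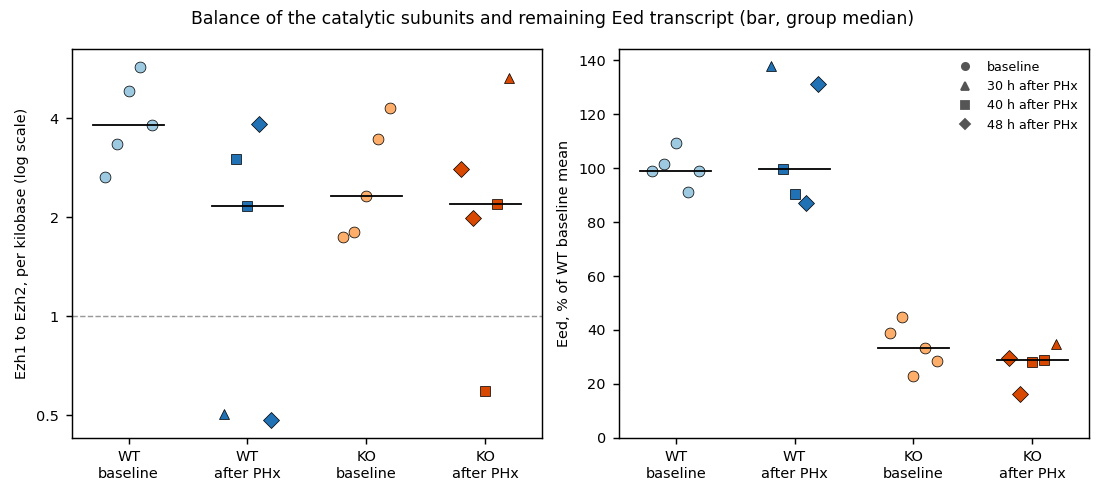
Left, ratio of Ezh1 to Ezh2 in CPM per kilobase (vertical axis, log scale, dashed line at 1) in each of the 20 libraries by group. Right, Eed as a percentage of the WT baseline mean (vertical axis, linear from 0); points are libraries, shapes give the time after PHx and bars are group medians. The ratio drops below 1 in WT 1, WT 5 and KO 10 after PHx, and the KO libraries keep 16.3% to 44.8% of Eed.

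Promoters were searched because Ezh2, Phf19 and Rbbp4 were highest in the same libraries, and Ezh2 is a known target of the E2F factors, which drive genes of S phase. The windows, from RefSeq (GRCm38.p6), ran from 250 bases before to 50 after each start, and all 10 genes matched, with 14 promoters. Aebp2 had 3 of these and Jarid2 and Mtf2 had 2 each, so a gene can count more than once. The E2F words TTTCCCGC, TTTCGCGC, TTTGCCGC and TTTGGCGC, on either strand, were found in 3 of these 14, of Ezh2, Phf19 and Suz12, and in 744 of all 32851 promoters (2.26%). The windows of 30 bases around each word follow 5′ to 3′ on the gene's strand, with the word in capitals.

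Ezh2, chr6:47595009-47595038, minus strand, 4 to 11 bases after the start: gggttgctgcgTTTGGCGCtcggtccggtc
Phf19, chr2:34914166-34914195, minus strand, 208 to 201 bases before the start: gtcaataattcGCGGGAAAacgcgaaaaag
Suz12, chr11:79992876-79992905, plus strand, 219 to 212 bases before the start: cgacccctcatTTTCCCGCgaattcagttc

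Rbbp4, highest in the same libraries as Ezh2 and Phf19, had none of these letters in its window. The other words searched, also on both strands, were CCAAT, in 37.4% of all promoters and 9 of the 14, the GC box GGGCGG (35.7% and 9), TTTGAA or TTCGAA of the cell cycle homology region (19.2% and 4), the E-box CACGTG (7.15% and 1, of Rbbp4), and CCGGAAG (8.86%) and the longer NRF1 (0.971%) and YY1 (0.633%) motifs, each in 0 of the 14. None of these words holds another of them as a part, and all were chosen with the expression values known. The shares over all promoters were not matched for G and C content. A match is a description of letters and names no site.

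Other PRC2 genes from a fixed list of 6 accessory genes, of which 5 were tested, included 1 called higher in KO at baseline and 2 after PHx, beside 11.1% and 16% of all genes. Epop, which links PRC2 to elongin, was the one called at both stages: it had 0.85 to 4.43 CPM in WT at baseline and 3.34 to 11.2 CPM in KO (log2 change 1.52, SE 0.40, edgeR adjusted p 0.0122), then 3.58 to 5.56 CPM in WT and 10.8 to 40.9 CPM in KO after PHx (2.53, SE 0.40, 0.000158). The groups after PHx did not overlap. Skida1 was called higher after PHx (1.87, SE 0.60, edgeR adjusted p 0.0285) at a mean of 0.803 CPM in KO. At baseline its log2 change was 0.98 (SE 0.62, adjusted p 0.299), and the difference between the stages was 0.90 (SE 0.86) and not called (adjusted p 0.706).

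PRC1, the complex that ubiquitylates histone H2A and reads the PRC2 mark, had 3 of 23 genes called higher in KO at baseline, beside 11.1% of all genes, and 8 of 23 after PHx, beside 16%. The median log2 changes of the 23 were 0.22 and 0.65 beside -0.03 and -0.01 over all genes. Cbx6, a reader of the PRC2 mark, had a mean of 3.25 ± 0.281 CPM (SD, n = 5) in WT and 14.1 ± 1.80 CPM in KO at baseline (log2 change 2.11, SE 0.30, edgeR adjusted p 7.84e-05). It was called higher after PHx as well (1.91, SE 0.30, edgeR adjusted p 0.000128). Rnf2, the ubiquitin ligase of PRC1, was called after PHx (1.37, SE 0.30, edgeR adjusted p 0.00231), as were Scmh1 (1.05) and Rybp (0.84). None of these 3 was called at baseline (0.09, 0.51 and 0.22), but the differences between the stages, 1.28 (adjusted p 0.185), 0.54 (0.554) and 0.63 (0.374), were not called either. Among 24 tested genes of other complexes that contain RBBP4 or RBBP7, 2 were called higher in KO after PHx and 1 lower, beside 16% and 8.2% of all genes. They were Gatad2b (1.00, SE 0.23, adjusted p 0.00309) and Mta3 (1.02, SE 0.24, 0.00396), both higher, and Chd3 (-0.56, SE 0.18, 0.0272), lower, which encode parts of the NuRD complex.

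Genes most like Eed, Ezh1 and Ezh2 over the 20 libraries were found by the Pearson correlation of log2(CPM + 1) among 11924 protein-coding genes with a mean of at least 1 CPM, as a description, since all libraries share the 4 groups and the Mki67 differences. For Eed these were Wfdc21 (0.91), Immt (0.89) and Usp24 (0.89). For Ezh1 they were Capn1 (0.87), Arhgef10l (0.86) and Haghl (0.84). For Ezh2 they were Spdl1 (0.94), Ect2 (0.94) and Sae1 (0.93).

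Some PRC2 genes share exon bases with a gene on the other strand, and the strand setting of the counting is not given in the sources used here. Mtf2 shares 395 bases with Tmed5, whose mean was 101 CPM at baseline and 204 CPM after PHx in WT, and 67.0 and 183 CPM in KO. Rbbp7 shares 174 bases with Txlng, whose mean was 30.8 CPM in WT and 13.8 CPM in KO at baseline. Rbbp4 shares bases with Sync, at most 3.06 CPM in any library. Reads of Mtf2 and Rbbp7 from those stretches cannot be told apart from reads of their partners.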

How the data were processed

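Liver RNA of 20 libraries was analysed from the files the authors deposited, raw read counts for Ensembl genes in a file for each library, not normalised. Per the labels' protocols, RNA had an integrity number above 8, 1000 ng of it went into TruSeq libraries sequenced paired-end on a NovaSeq 6000, and uniquely mapped reads on mm10 were counted. The series' design text names FastQC 0.11.5 and fastp 0.20.0 for trimming, and the submitters' processing notes name Trimmomatic 0.36. The aligner, counter and strand setting are not given in the sources used here. Paralogs lose reads that map to several places.

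Symbols, coordinates and exon lengths came from GENCODE M21 (46091 of 46603 identifiers). The main fit was edgeR 4.0.16 (quasi-likelihood, two-sided, R 4.3.3) with TMM, filterByExpr (14661 genes) and 4 group means over 20 libraries; 8 means of genotype by time gave the 40 h and 48 h values. Adjusted p-values run over all genes tested. The scripts were tested on simulated data. Alternatives were RLE size factors, library size alone, other filters, 10 samples only, a time covariate, mouse as a block, DESeq2 1.42.0, each library left out and, chosen after seeing the data, both 30 h samples left out and the 40 h minus 48 h difference.

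The labels give 9 mice a baseline and a later sample (WT baseline replicate 1 has no number in its title), so the pairing rests on the animal. Residual correlations were -0.05 to 0.15 within a mouse (9 pairs) and -0.23 to 0.26 otherwise (41 pairs). Libraries of 1 group come from different mice. The p-values of the main fit rest on a spread within groups that is pooled over all 4 groups. They do not measure the spread of the compared groups alone, and the main fit does not use the pairing of mice. Intervals and floors cover counting error only.

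Named genes are the 10 PRC2 genes, the 3 genes most correlated with Eed, Ezh1 and Ezh2, up to 4 genes per list called between genotypes, and Mki67 and Cdkn2a; Ptprc, Pcna and the overlap partners were added as values. The members and lists were chosen with earlier results of these data known.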

Additional observations from a re-analysis of the deposited data

Results flagged for a closer look

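Among 40 sets of 5 libraries (10 PRC2 genes in 4 groups), 4 held a library far from the other 4, where chance gives about 1 in 20, or 2 sets. Ezh1 was 18.1 CPM in WT after PHx replicate 4 (48 h), with the next library at 12.8 CPM. Jarid2 was 9.83 CPM in WT baseline replicate 3, below the next at 11.8 CPM. Mtf2 was 12.98 CPM in WT after PHx replicate 5 (48 h), above the next at 8.55 CPM. Phf19 was 3.89 CPM in KO after PHx replicate 10 (40 h), above the next at 0.612 CPM, and this library was also the KO library highest in Mki67.

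The KO against WT difference of Phf19 changed between the times after PHx. It was 3.63 (log2, SE 1.16) at 40 h and -3.01 (SE 1.13) at 48 h, and the difference between the times was 6.65 (SE 1.61, edgeR adjusted p 0.0355), where 4.72% of all genes were called. That share itself depends on single libraries, from 0.187% without WT replicate 2 to 21.4% without WT replicate 4. Each arm held 2 libraries, and the contrast was chosen after seeing the data. Leaving out 1 of 8 libraries, with the lone library of its arm assumed to vary like the other groups, lost the call in 5 cases, and the smallest difference was 4.79 without KO replicate 10. Without WT replicate 3 the WT arm at 40 h is replicate 2 alone, which has 0 counts, so that the fitted differences at 40 h and between the times depend on the prior count and are not given. Ezh2 differed between the times in the same direction, by 2.73 (SE 0.88), and was not called (adjusted p 0.0744). With 1 library left out it ran from 1.11 without WT replicate 5 (adjusted p 0.51) to 3.63 without WT replicate 4, where it was called (0.00275), as it was without KO replicate 11 (3.27, 0.0391) and with no filter on low counts (2.87, 0.0214).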

How the results depend on the processing

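In all, 56 counts or ratios and 445 single-gene changes were recomputed under other settings. Of the single-gene changes, 403 kept their direction and their side of the threshold, and 601 of 664 did so with 1 library left out. Of the counts or ratios, 45 were rated unmoved, and 60 of 68 with 1 library left out. For a count that means within 1.5 times, whichever genes were called, and for a ratio within its SD. Eed was called lower in KO at both stages under every setting run. Library size alone moved the medians of all genes to 0.45 (KO against WT at baseline), 0.37 (after PHx), 0.40 (PHx in WT) and 0.37 (PHx in KO), and then 4 PRC2 genes were called in KO against WT after PHx (28.6% of all genes), 4 for PHx in KO (34.2%), 2 at 48 h (24.5%) and 6 at 40 h (21.2%). It turned these uncalled changes: at baseline Suz12 0.15, Rbbp4 0.052, Rbbp7 0.32, Jarid2 0.35 and Mtf2 0.22; after PHx Ezh2 0.21, Suz12 0.29, Rbbp4 0.30, Aebp2 0.22 and Mtf2 0.0056; for PHx in WT Ezh1 0.25 and Jarid2 0.29; and at 48 h Rbbp4 0.11. Only the 10 samples compared gave counts of 3 at baseline and 1 after PHx, where 39.5% and 9.69% of all genes were called; time as a covariate gave 4 for PHx in KO (30.4%); no filter gave 2 at 48 h (14.7%). With the replicate block (mouse) the count for PHx in WT was 1, where 13.2% of all genes were called (Ezh2 and Aebp2 lost their calls), Jarid2 there was 0.029, Ezh1 for PHx in KO -0.047 and the difference of responses for Mtf2 0.033; in KO Rbbp4 was gained, and the block changed no other call. Without both 30 h samples Ezh2 was 0.40 and Rbbp4 0.20 (KO against WT after PHx), Jarid2 0.030 (PHx in WT) and Phf19 0.33 (difference of responses). Leaving out 1 library gave counts of 2 to 4 (KO against WT after PHx), 2 to 4 (PHx in KO), 0 to 1 (difference), 1 to 4 (40 h) and 1 to 3 (48 h), and turned changes that were not called with all libraries within these ranges: after PHx Ezh2 -0.68 to 0.32, Suz12 -0.19 to 0.039, Rbbp4 -0.21 to 0.19, Aebp2 -0.37 to 0.38 and Phf19 -1.58 to 0.74; PHx in WT Jarid2 -0.16 to 0.029; PHx in KO Ezh1 -0.18 to 0.25; difference Ezh1 -0.11 to 0.37, Aebp2 -0.67 to 0.060, Mtf2 -0.34 to 0.048 and Phf19 -2.09 to 0.19; 40 h Jarid2 -0.30 to 1.30 (called at 1.30, without KO replicate 10, adjusted p 0.0273); 48 h Rbbp7 -0.23 to 0.42 and Ezh2 -1.71 to 0.81 (called at -1.71, without WT replicate 4, adjusted p 0.0251). The mean Rbbp4 to Rbbp7 ratio by the longest transcript was 1.09 (WT at baseline), 0.442 (WT after PHx) and 0.937 (KO at baseline). Beyond fewer samples or another scaling, the cause was not tested. The filter of 1 CPM in 5 samples removed Phf19, as did the fits of 10 samples in 3 comparisons, so these gave no value, and its 297 counts limit it.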
